A study of Mus musculus with 6 samples.

Results

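The interferon-stimulated genes described here are 38 genes that cells switch on after interferon, the cytokine of the antiviral response. They were found by gene symbol among the 56980 genes of the deposited count matrices, and each of the 38 had at least 1 count in every library. Nuclear RNA was sequenced from white fat of female C57BL/6J mice, with no treatment or transgene named in the labels, in 3 groups of 2 libraries. The first group was inguinal subcutaneous fat (SAT) of mice aged 2 months, the second the same depot at 24 months, and the third gonadal visceral fat (VAT) at 24 months. The design text gives the older mice a slightly higher age than the labels, which are followed here. The study's methods give 2 mice per age for both depots, so the 24-month SAT and VAT libraries may share mice, which the labels do not pair. With 2 libraries a group, p-values measure the spread between these libraries alone, and an exact test of a single value could not give a p below 0.33.

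Interferons bind receptors on the cell surface, whose kinases phosphorylate STAT proteins. STAT2 and IRF9 take part in a complex that enters the nucleus and binds the interferon-stimulated response element (ISRE), a short repeat of GAAA bases in the promoters of target genes. The products detect foreign nucleic acid (Ifih1, Zbp1, Ifi204), block viral translation and RNA (the IFIT and OAS families), trap virus particles (Mx1, Bst2), attach or remove the ubiquitin-like protein ISG15 (Herc6, Usp18), and feed back on the response itself (Irf7, Irf9, Stat2).

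The repeat GAAANNGAAA, read on either strand, was searched in the 250 bases before the start of each gene (GRCm39, GENCODE M39). It lay before 15 of the 38 members (39.5%) and before 723 of 21757 protein-coding genes (3.32%). The gamma-activated element TTCNNNGAA lay before 6 members (15.8%) and 7.7% of genes. Matches are letters in a window, not measured binding. The stretches below belong to the 7 members with a match that passed a test described further on, to Ifit3b as the near copy of Ifit3, and to Isg15 and Bst2, which stood high in a library described below. Each is printed 5′ to 3′ in the direction of its gene, and capitals mark the repeats, with overlapping repeats run together.
Ifit3 (chr19:34560758-34560831, plus strand): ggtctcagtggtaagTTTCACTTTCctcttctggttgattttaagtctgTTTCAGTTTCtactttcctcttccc
Ifit3b (chr19:34585154-34585227, plus strand): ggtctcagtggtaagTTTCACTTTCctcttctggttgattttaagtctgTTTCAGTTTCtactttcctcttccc
Zbp1 (chr2:173060737-173060830, minus strand): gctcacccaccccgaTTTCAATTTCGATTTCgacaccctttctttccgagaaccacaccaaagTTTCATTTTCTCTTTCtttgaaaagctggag
Trim30a (chr7:104114412-104114451, minus strand): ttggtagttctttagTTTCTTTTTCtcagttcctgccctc
Usp18 (chr6:121222767-121222830, plus strand): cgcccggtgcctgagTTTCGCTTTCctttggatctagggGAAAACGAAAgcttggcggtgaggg
Oas2 (chr5:120887965-120888004, minus strand): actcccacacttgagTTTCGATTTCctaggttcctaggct
Rnf213 (chr11:119283802-119283841, plus strand): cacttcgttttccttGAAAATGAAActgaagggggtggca
Ifi203 (chr1:173770069-173770108, minus strand): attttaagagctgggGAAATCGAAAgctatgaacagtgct
Isg15 (chr4:156285317-156285368, minus strand): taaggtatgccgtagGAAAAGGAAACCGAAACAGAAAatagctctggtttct
Bst2 (chr8:71990216-71990261, minus strand): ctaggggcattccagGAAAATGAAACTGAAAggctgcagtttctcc
The stretches of Ifit3 and Ifit3b were identical, within a run of 182 shared bases, and reads of these neighbours on chromosome 19 may have been split between them. Zbp1 held 4 matches, of which neighbours overlapped.

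After filtering, 27074 of 50859 barcodes were kept as nuclei, 2490 to 5776 per library, at a median of 1380 to 1878 unique molecule counts (UMIs). Each library held 8061862 to 16226690 UMIs in all. Nuclei were assigned to classes from marker lists, with the members left out of the genes used for clustering, and "-like" is implied in every class name. Levels are CPM, the UMIs of a gene per 1000000 UMIs of a class in a library, not corrected for gene length, so they are compared within a gene. FAPs (fibro-adipogenic progenitors, the fibroblast-like stromal cells) carried their marker list at 11010 to 20010 CPM in 5 libraries and at 3839 CPM in VAT replicate 2, where the mesothelial list stood at 2170 CPM in the same nuclei, against 18.1 to 224 CPM elsewhere. FAP values of that library are therefore read as a mixed class.

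Mature dendritic cells, which carry antigen to lymph nodes, held the highest median of the summed level of the 38 members, at 6378 to 9981 CPM in the 5 libraries with enough nuclei. This rested on Epsti1, without which they held 1812 to 3098 CPM, against 3015 to 4751 CPM in conventional dendritic cells. Plasmacytoid dendritic cells, the known producers of type I interferon, stood at 6008 and 5590 CPM in the SAT libraries at 2 months. Adipocytes had the lowest median, at 919.8 to 2209 CPM over the 6 libraries. Between them, conventional dendritic cells ranged from 3252 to 5107 CPM, NK cells from 3454 to 4691, T cells from 2377 to 3709, endothelial nuclei from 2755 to 4182, mesothelial nuclei from 1605 to 4482, B cells from 1388 to 3681 and epithelial nuclei from 1097 to 3058. Epithelial nuclei lay wholly below conventional dendritic cells and NK cells, and the other pairs of these ranges overlapped. Macrophages (2649 to 8220 CPM) and FAPs (2272 to 11970 CPM) had the widest ranges.

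**Figure D1:**
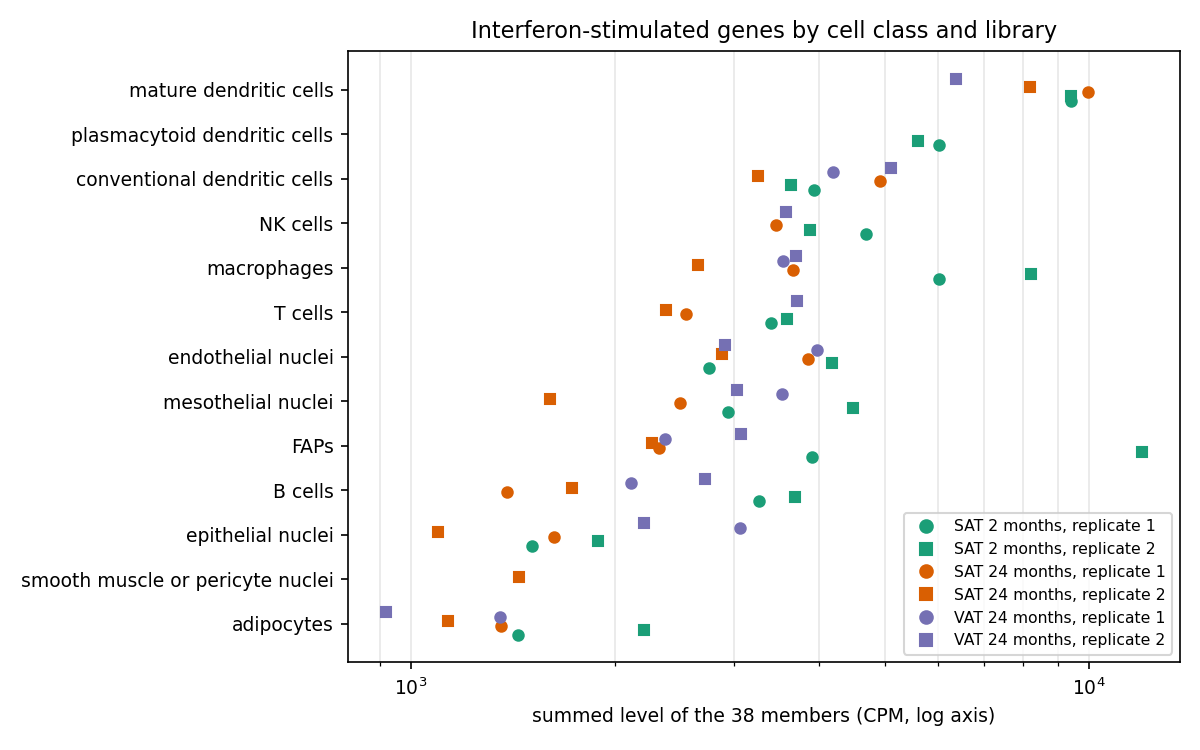
Summed level of the 38 interferon-stimulated genes (CPM, log axis) by cell class, with 1 point per library that held at least 20 nuclei of the class, coloured by group and shaped by replicate. Mature dendritic cells lie at 6378 to 9981 CPM, most of it Epsti1, adipocytes at the bottom, and FAPs of SAT 2 months replicate 2 stand alone at 11970 CPM.

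The member that set mature dendritic cells apart was Epsti1, named for its induction during epithelial-stromal interaction. Epsti1 was at 7040 and 6825 CPM in young SAT, at 8168 and 5880 CPM in old SAT and at 3279 CPM in VAT replicate 2. NK cells came next, at 463 to 1221 CPM, and in each of the 4 libraries with both classes the level in mature dendritic cells was at least 4 times that of NK cells. No other member met that rule. Mx1, a GTPase against influenza-like viruses, also had its highest median there, at 578 to 896 CPM, against 217 to 365 CPM in conventional dendritic cells. In SAT 2 months replicate 2, FAPs held more of it (643.8 CPM) than mature dendritic cells (578 CPM). Usp18, which removes ISG15 from proteins, reached 75.6 to 126 CPM in mature dendritic cells.

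Among the members named by UMI count for signalling and sensing, Stat2 was at 574 and 322 CPM in plasmacytoid dendritic cells, 157 to 387 CPM in conventional dendritic cells and 34.6 to 80.5 CPM in adipocytes. Ifi203, of the DNA-sensing PYHIN family, was at 328 to 575 CPM in T cells and at 354 to 442 CPM in NK cells, which overlapped, and at 2.06 to 17.2 CPM in adipocytes. Its neighbour on chromosome 1, Ifi204, had another distribution. Ifi204 was at 361 and 550 CPM in FAPs of young SAT, at 360 and 392 CPM in old SAT and at 258 and 133 CPM in VAT, whereas T cells held 1.15 to 12.8 CPM. Macrophages, at 89.7 to 192 CPM, were next.

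Of the antiviral families, Oas2 (an enzyme that makes the oligoadenylate messenger of RNA decay) was at 130 to 343 CPM in macrophages. Oasl2 and Ifit1 had their highest medians in mesothelial nuclei, at 280 and 52.8 CPM, and both overlapped with FAPs. Rsad2, known as viperin, was at 26.7 to 132 CPM in endothelial nuclei. Ifit2 stood at 12.5 to 81.2 CPM in mesothelial nuclei and at 6.38 to 35.2 CPM in T cells. Herc6, the mouse ISG15 ligase, was at 113 to 122 CPM in mature dendritic cells of the 5 libraries with enough of them.

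Bst2, or tetherin, was at 1344 and 1267 CPM in plasmacytoid dendritic cells, of which its protein is a known surface marker, and at 224 to 369 CPM in endothelial nuclei. Trim30a, a TRIM family protein, also peaked in plasmacytoid dendritic cells, at 1229 and 1314 CPM. Parp14 was at 158 to 220 CPM in macrophages. Of the guanylate-binding proteins, Gbp3 was at 40.7 to 154 CPM and Gbp7 at 30.5 to 242 CPM in endothelial nuclei. By their medians, 10 members were highest in plasmacytoid dendritic cells (which rest on the 2 young SAT libraries, so that their medians and those of classes with 6 libraries are not over the same samples), 5 each in endothelial nuclei, macrophages, mature dendritic cells and mesothelial nuclei, 3 each in T cells and in smooth muscle or pericyte nuclei (which rest on 1 library), and 1 each in B cells and FAPs.

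The interferon genes themselves were almost absent from these nuclei. Over the 6 libraries, the 12 listed interferon genes gave 73 UMIs, of which Ifng, the type II interferon of T and NK cells, gave 37. Ifnb1, the fibroblast-type interferon beta, gave 6 UMIs in all, and each of them was in SAT 2 months replicate 2, with 5 in 3 FAP nuclei and 1 in 1 adipocyte nucleus. Ifna1 gave 1 and 3 UMIs in single plasmacytoid dendritic nuclei of SAT at 2 months. Such counts are too few to compare groups.

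FAPs of that same library, SAT 2 months replicate 2, stood apart. Its 183 FAP nuclei held 11970 CPM of members, against 3902 CPM in the other SAT library at 2 months and 2272 to 3074 CPM in the 4 older libraries. Each of the 38 members was higher than in replicate 1, 12 of them over 4 times (Oas1a, with 0 UMIs against 4, has no ratio), and 36 were at their highest of the 6 libraries. In T cells of the same pair of libraries 15 of 38 members were higher in replicate 2, in B cells 20, in mature dendritic cells 21, in macrophages 26, in endothelial nuclei 27 and in adipocytes 32. The same counts were not made over all genes, so the counts of members in FAPs and these classes cannot be set against them.

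Mx1 was at 36.4 CPM in FAPs of replicate 1 and at 643.8 CPM in replicate 2, at 0 and 12.1 CPM in old SAT, and at 4.31 and 6.03 CPM in VAT. Isg15, which marks proteins after infection, was at 44.8 and 280.1 CPM at 2 months and at 12 and 3.01 CPM at 24 months in SAT. Ifit3 was at 28.0 and 369 CPM and at 0 and 12.1 CPM. In these 3 genes the young libraries lay above the old ones, and replicate 2 lay further from replicate 1 than replicate 1 from the old libraries in CPM. The old SAT values rest on 55 and 213 FAP nuclei, with 194 and 754 UMIs of all members together. Levels of 0 to 12.1 CPM there are very few UMIs each. Bst2 went from 268.9 to 1347 CPM between the young replicates, and Oas2 from 159.7 to 622.3 CPM. Ifi204 differed less, at 361.4 and 549.5 CPM.

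**Figure D2:**
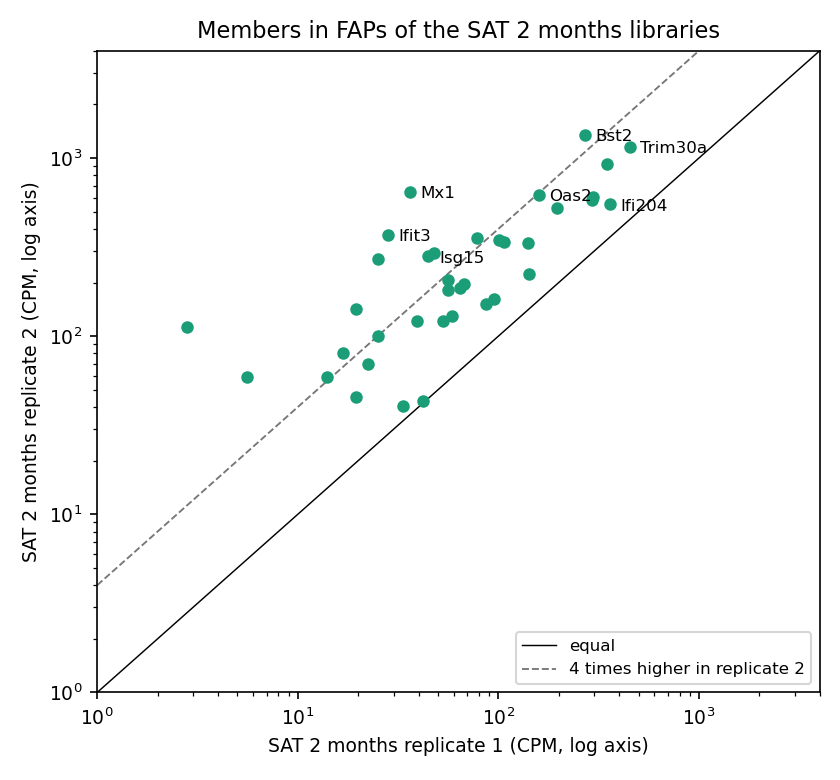
Level of each member in FAPs of SAT 2 months replicate 1 (horizontal, CPM, log axis) and replicate 2 (vertical, CPM, log axis), with 1 point per member and Oas1a left out because it was at 0 in replicate 1. Each plotted point lies above the line of equal levels, and 12 members were more than 4 times higher in replicate 2.

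The UMIs of the members were spread over many nuclei of that library. After each nucleus was thinned to 1000 UMIs, 66.7% of its FAPs (exact 95% interval 59.3% to 73.5%) held UMIs of 5 or more different members. The share was 19.6% in replicate 1, 3.64% and 4.23% in SAT at 24 months, and 5.23% and 10.2% in VAT. With the FAPs of all libraries pooled, the share was 15.1%, and 24.9% without thinning. The median FAP nucleus of replicate 2 held 6 members, and that of the other libraries 1 or 2. Of the mature dendritic cells, pooled over libraries, 8.97% held 5 or more members, against 12.4% of all immune nuclei. Macrophages showed the same direction as FAPs, at 30.5% and 49.1% in SAT at 2 months, 11.5% and 8.81% at 24 months, and 17.6% and 16.8% in VAT. In T cells the shares were 13.1% and 11.5% at 2 months, 3.74% and 4.79% at 24 months, and 16.1% in VAT replicate 2. Adipocytes, the class with the lowest summed level, had 0.779% and 4.53% at 2 months, 0.587% and 0.591% at 24 months, and 0.859% and 0.641% in VAT. Intervals cover counting error only.

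**Figure D3:**
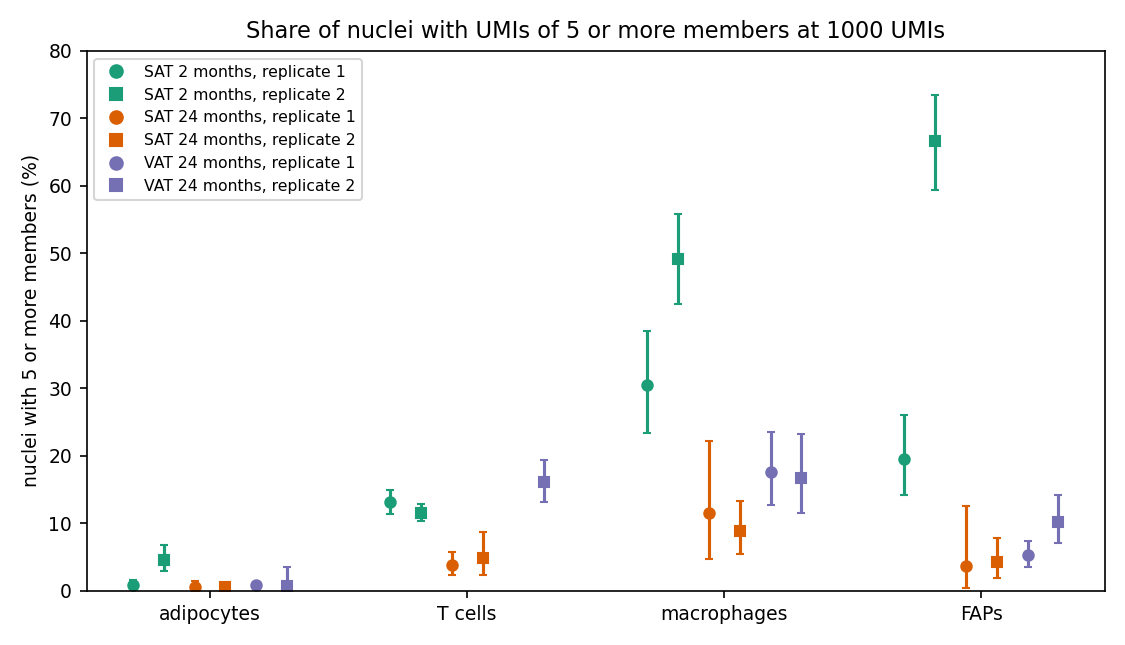
Share of nuclei (%) with UMIs of 5 or more of the 38 members after thinning to 1000 UMIs per nucleus, by class and library, with exact 95% binomial intervals as bars. FAPs of SAT 2 months replicate 2 reach 66.7%, and in all classes shown both young SAT libraries lie above both old ones. In adipocytes the interval of young replicate 1 overlaps with those of the old libraries.

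Markers of other cells in the same FAP nuclei differed less between the young replicates than the summed members did. This does not hold for each member, as Ifit2 (1.03 times) and Dtx3l (1.2 times) differed less than the T cell list (1.45 times). The T cell list was at 439.8 and 635.7 CPM, the B cell list at 327.8 and 471.4 CPM, and the mature dendritic cell list at 268.9 and 404.1 CPM, against a ratio of 3.07 for the summed members. Lymph node markers stood at 179.3 and 331.3 CPM, and the FAP list at 14310 and 16390 CPM. Removing the nuclei with the highest doublet scores, a choice made after seeing the data, left the median log2 fold change of the members with age in FAPs at -1.87, against -1.80 with them. The part of the other cells in the level was not tested.

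The first comparison asks how SAT at 24 months differs from SAT at 2 months. UMIs were summed per library and class and tested with edgeR's quasi-likelihood test over all genes, with Benjamini-Hochberg adjustment, and genes with an adjusted p under 0.05 were called. Members were called in adipocytes (10), T cells (9), B cells (1) and mature dendritic cells (1), and 15 of the 38 were called in at least 1 class. The share of all genes called in at least 1 class was not counted. Summed over immune nuclei, 0 of 37 were called by edgeR, which called 0% of all genes there, and by DESeq2, which called 0.58% of the genes it adjusted. Of the 37, 6 were lower and 0 higher at an unadjusted p under 0.05 (3.6% and 4.92% of all genes). There 26 were apart and lower and 4 apart and higher (33.3% and 19.9%). Summed over all nuclei, 0 of 38 were called by edgeR, which called 0% of all genes, and by DESeq2, which called 1.55% of the genes it adjusted. Of the 38, 0 were higher and 8 lower at an unadjusted p under 0.05 (5.06% and 3.19% of all genes). That number was 1 without SAT 2 months replicate 2 and 4 without SAT 24 months replicate 2. In such sums, fewer nuclei of a class and less RNA per nucleus cannot be told apart.

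In adipocytes 29 members had enough counts, and 8 of them fell with age whereas Parp9 and Dtx3l rose. Of all 12961 genes tested there, 7.27% were called lower and 6.56% higher. Irf7, the factor that amplifies interferon production, was at 72.0 and 91.8 CPM at 2 months and at 23.3 and 11.9 CPM at 24 months (log2 fold change -2.14 ± 0.385 SE, edgeR adjusted p = 0.00384). Irf9, the partner of STAT2 in the complex above, was at 58.6 and 97.5 CPM and then at 25.4 and 28.8 CPM (-1.33 ± 0.304, adjusted p = 0.014). In both genes the age groups did not overlap.

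Zbp1, a sensor of Z-form nucleic acid with 4 repeats in its promoter above, was at 19.4 and 32.9 CPM at 2 months and at 5.49 and 4.98 CPM at 24 months (-2.14 ± 0.51, adjusted p = 0.0171). Ifi203 was at 17.2 and 15.9 CPM and at 2.06 and 4.98 CPM (-1.93 ± 0.588, adjusted p = 0.048). In both, the young libraries lay above the old ones. Ifit3, which binds Ifit1 and blocks translation of viral RNA, was at 20.4 and 32.9 CPM and at 8.92 and 3.74 CPM (-2.03 ± 0.575, adjusted p = 0.0362), and the split of its reads with Ifit3b is uncertain.

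Oasl2, of the OAS-like proteins, had the largest fall of the called members, from 19.4 and 52.2 CPM to 6.18 and 5.34 CPM (-2.44 ± 0.534, adjusted p = 0.0108). Trim30a fell from 287 and 672.4 CPM to 143.5 and 153.5 CPM (-1.52 ± 0.369, adjusted p = 0.0188), and Epsti1 from 31.7 and 74.8 CPM to 17.2 and 9.61 CPM (-1.87 ± 0.527, adjusted p = 0.0356). The replicates at 2 months differed by over 2 times in these 3 genes, and no old library reached either of them.

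Parp9, a mono-ADP-ribosyltransferase family member, and Dtx3l, the ubiquitin ligase it binds, went the other way. Parp9 was at 65.6 and 80.5 CPM at 2 months and at 254.6 and 138.2 CPM at 24 months in SAT (1.60 ± 0.416, adjusted p = 0.0257), and at 232.4 and 94.5 CPM in VAT. Dtx3l was at 26.9 and 22.7 CPM and then at 83.7 and 45.8 CPM (1.5 ± 0.389, adjusted p = 0.0254). The 2 genes lie head to head on chromosome 16 and overlap by 682 bases (Parp9 chr16:35758840-35792980, plus strand, and Dtx3l chr16:35746881-35759521, minus strand). Whether counting used strand is not given in the sources used here, so reads in the overlap cannot be assigned to either gene. In macrophages Parp9 had the opposite direction, at 212.9 and 196.2 CPM at 2 months and at 55.3 and 54.3 CPM at 24 months, though it was not called there.

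**Figure D4:**
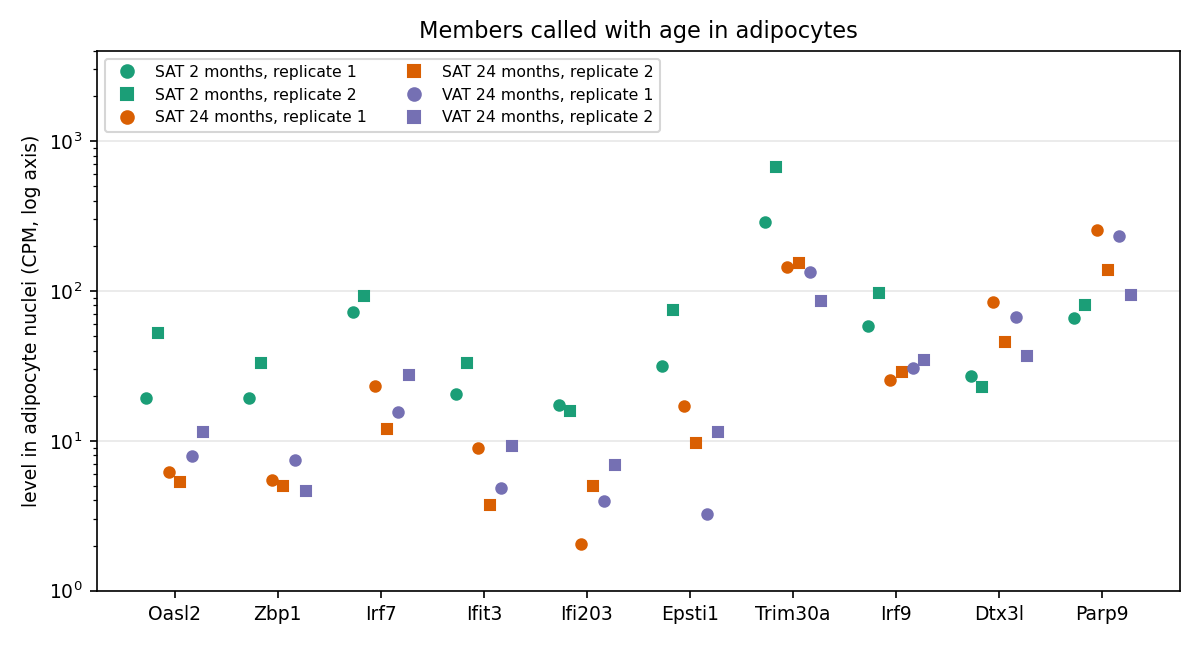
Level in adipocyte nuclei (CPM, log axis) of the 10 members called between SAT at 24 and 2 months, with 1 point per library, coloured by group and shaped by replicate. In the 8 genes from Oasl2 to Irf9 both young SAT libraries lie above both old ones, and in Dtx3l and Parp9 below.

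The 29 tested members had a median log2 fold change of -0.71 in adipocytes, against -0.00199 over all tested genes, and in 19 of them both old libraries lay below both young ones (38.8% of all genes). Among those not called, Ifi27l2a was at 264.9 and 151.9 CPM at 2 months and at 315.7 and 323.5 CPM at 24 months, and Stat2 at 37.6 and 80.5 CPM and at 50.1 and 46.7 CPM. In Stat2 the age groups overlapped, and in Ifi27l2a the old libraries lay above the young ones. The median was -1.23 without SAT 2 months replicate 1 and -0.443 without replicate 2. The count of 10 also depended on single libraries. It was 1 (Irf7) without SAT 2 months replicate 2, 6 without SAT 2 months replicate 1 or SAT 24 months replicate 2, and 5 with looser filters on nuclei.

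Immune transcripts also differed between the adipocyte nuclei of the age groups. The T cell list was at 232.7 and 435.4 CPM at 2 months and at 52.2 and 29.7 CPM at 24 months, the B cell list at 302.6 and 436.5 CPM and at 89.2 and 49.0 CPM, and the mature dendritic cell list at 318.7 and 441.1 CPM and at 61.1 and 43.3 CPM. These lists were 5.35 to 8.16 times higher in the mean at 2 months, the lymph node list 9.92 times, the NK cell list 4.6 times and the macrophage list 1.77 times. The 8 members that fell were 2.88 (Irf9) to 6.21 times (Oasl2) higher, which is less than the lymph node list for each of them and less than the T cell, B cell and mature dendritic cell lists for all but Oasl2. In SAT 2 months replicate 1, the 3 lists stood in adipocytes at 10.2% to 25.5% of their level in all other nuclei, and the 8 members that fell at 3.92% to 143%, with a median of 45.8%. In replicate 2 the values were 15.3% to 36.4% and 5.65% to 136%, with a median of 81.2%. In both replicates Epsti1 (3.92% and 5.65%) and Ifi203 (7.56% and 6.77%) lay below all 3 lists, and the other members that fell lay above them. The part of immune RNA in the 8 falls was not tested. Parp9 and Dtx3l were higher where these lists were lower. Parp9 stood at 239% and 182% of its level in the other nuclei in the old SAT replicates, and Dtx3l at 164% and 89.1%.

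In T cells, 9 of 32 tested members fell with age and 0 rose, by edgeR, where 4.87% of all genes were called lower and 7.24% higher. At an unadjusted p under 0.05, 14 members were lower and 1 higher (11.9% and 13% of all genes). Oas2 was at 49.8 and 61.1 CPM at 2 months, at 5.74 and 22.3 CPM at 24 months, and at 20.2 CPM in VAT replicate 2 (-2.34 ± 0.443, adjusted p = 0.00101). Ifi27l2a, a mitochondrial interferon target, was at 102.9 and 67.9 CPM and then at 26.4 and 41.5 CPM (-1.39 ± 0.311, adjusted p = 0.00461). In VAT replicate 2 it was at 124.8 CPM, above either SAT group.

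Irf9 was at 147.4 and 132.5 CPM in young and at 55.1 and 86.2 CPM in old SAT T cells (-1.03 ± 0.242, adjusted p = 0.00658). Ifit2 was at 35.2 and 32.5 CPM and at 10.3 and 6.38 CPM (-1.81 ± 0.437, adjusted p = 0.00832). Usp18 was at 25.1 and 21.4 CPM and at 3.44 and 9.57 CPM (-2.09 ± 0.563, adjusted p = 0.0171). The young replicates of T cells were close to each other in these genes. Ifit3 was at 19.4 and 8.19 CPM at 2 months and at 1.15 and 0 CPM at 24 months, where a single UMI was counted (-3.83 ± 1.15, adjusted p = 0.0323, a fitted value that depends on the prior count). Trim30a, Rnf213 (a large RING ligase) and Zbp1 were also called, at -0.983, -0.935 and -0.862.

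Ifi203 did not follow the others in T cells, at 377.4 and 328.2 CPM at 2 months and at 574.9 and 421.2 CPM at 24 months, though it was not called. The 32 members had a median of -0.608, against -0.0269 over all genes, and 19 were apart and lower (31.7% of all genes). Without SAT 2 months replicate 1 the count of 9 was 3, without SAT 2 months replicate 2 or SAT 24 months replicate 1 it was 4, and DESeq2 called 4. Between the ages, the mature dendritic cell list in T cell nuclei was at 369.3 and 487.9 CPM and at 122.8 and 146.8 CPM, and the lymph node list at 134.8 and 168.2 CPM and at 24.1 and 51.1 CPM. Their part in the falls was not tested. Ifit3, Irf9, Trim30a and Zbp1 were called lower in both adipocytes and T cells, which come from the same libraries. The share of all genes called lower in both was not counted.

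In macrophages 0 of 34 tested members were called by edgeR, which called 0.0131% of all genes lower and 0.0261% higher. DESeq2 called 3 members, and 1.11% of the genes it adjusted. At an unadjusted p under 0.05, 22 were lower and 0 higher, against 6.51% and 6.28% of all genes, and 30 were apart and lower (28.1% of all genes). Irf7 was at 206.1 and 271 CPM at 2 months and at 36.9 and 9.44 CPM at 24 months (-3.73 ± 0.668, edgeR adjusted p = 0.081). Rsad2 was at 137.4 and 350.4 CPM and at 0 and 21.2 CPM (-3.83 ± 0.711, adjusted p = 0.0941). Oas3 was at 72.1 and 135.5 CPM and at 0 and 2.36 CPM (-5.45 ± 0.859, edgeR adjusted p = 0.0582). Its old values are very few UMIs, so this fitted value depends on the prior count. In these 3 genes the groups did not overlap.

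Without SAT 2 months replicate 2, and likewise without SAT 24 months replicate 2, 12 members were at an unadjusted p under 0.05. The median over the 34 was -1.43, against -0.00118 over all genes. The summed members were at 6003 and 8220 CPM in young and at 3662 and 2649 CPM in old SAT macrophages. Epsti1 differed, at 370.9 and 455.5 CPM and at 728.7 and 424.9 CPM. Fitting the 4 SAT libraries alone called 7 members, leaving out the filter on low counts 11, and clustering without batch correction 5. The shares of all genes called under these settings were not counted. The macrophage list was at 10690 and 7384 CPM at 2 months and at 7960 and 15280 CPM at 24 months. Skeletal muscle markers in macrophage nuclei were at 992.5 and 953.1 CPM and at 202.9 and 188.9 CPM, and the T cell list at 391.5 and 747.5 CPM and at 313.6 and 33.1 CPM. Their part was not tested.

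In FAPs 0 of 32 tested members were called by edgeR, which called 0% of all genes. DESeq2 called 3 members, and 0.327% of the genes it adjusted. By edgeR 20 were lower and 0 higher at an unadjusted p under 0.05 (6.77% and 3.94% of all genes), and 20 were apart and lower (26.4%). Zbp1 was at 78.4 and 355.6 CPM at 2 months and at 12 and 15.1 CPM at 24 months (-3.89 ± 0.843, edgeR adjusted p = 0.334). The 12 CPM came from 55 nuclei and rests on very few UMIs. Oas2 (-3.57 ± 0.763) and Oasl2 (-2.88 ± 0.611) had the same adjusted p. Oasl2 was at 291.4 and 579.2 CPM and at 60.0 and 57.3 CPM. The median of -1.80 was -1.01 without SAT 2 months replicate 2, and the number at an unadjusted p under 0.05 was then 4, and 12 without SAT 24 months replicate 2. In the FAP nuclei the B cell list was 7.19 times, the lymph node list 7.08 times, the T cell list 3.14 times and the mature dendritic cell list 2.04 times higher in the mean at 2 months, and their part in the differences was not tested. Gbp2 overlapped between the ages, at 16.8 and 80.8 CPM and at 60.0 and 45.2 CPM.

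**Figure D5:**
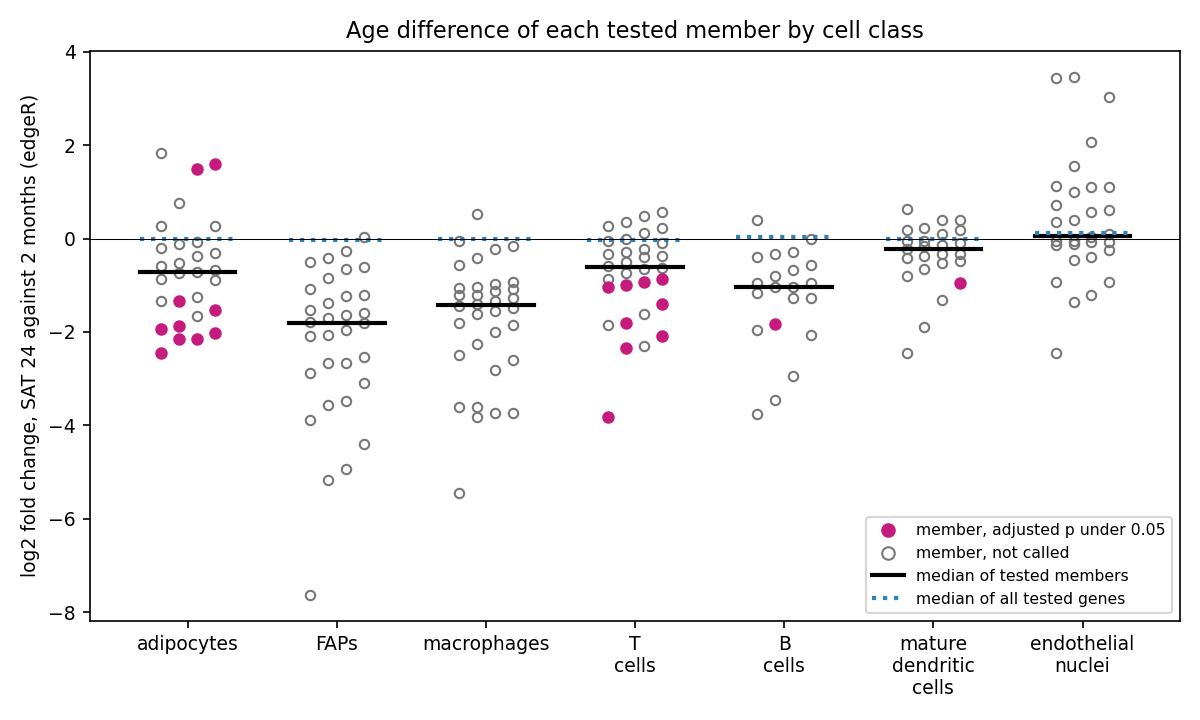
Log2 fold change (edgeR) of each tested member between SAT at 24 and 2 months by class, with magenta points for those at an adjusted p under 0.05, a black line for the median of the members and a dotted blue line for that of all genes tested. Medians were -1.80 in FAPs, -1.43 in macrophages, -1.03 in B cells, -0.71 in adipocytes, -0.608 in T cells, -0.228 in mature dendritic cells and 0.0661 in endothelial nuclei.

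Trim30a was the member called lower in B cells, at 625.9 and 939.9 CPM at 2 months and at 232.6 and 158.9 CPM at 24 months (-1.82 ± 0.365, edgeR adjusted p = 0.0236), where 0.525% of all genes were called lower. It was 1 of 21 tested, and Oas2 was at 53.2 and 76.1 CPM and at 7.5 and 0 CPM (-3.45 ± 0.844, adjusted p = 0.0551). Gbp3 was at 68.6 and 54.5 CPM and at 11.2 and 16.7 CPM (-2.07 ± 0.629, adjusted p = 0.134). Without SAT 2 months replicate 2, and with looser filters on nuclei, the count was 0, and without SAT 24 months replicate 2, of which 73 nuclei were B cells, it was 6. The median of the 21 was -1.03, against 0.027 over all genes. The T cell list in B cell nuclei was at 1319 and 2064 CPM at 2 months and at 532.6 and 125.5 CPM at 24 months, and its part was not tested.

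In mature dendritic cells, Trim30a was again called, at 284.1 and 556.1 CPM and at 141.3 and 252.2 CPM (-0.958 ± 0.241, edgeR adjusted p = 0.0167), as 1 of 25 tested members where 0.594% of all genes were called lower. The count was 0 with DESeq2, with looser filters on nuclei, with the highest doublet scores removed, with the 4 SAT libraries alone and without SAT 2 months replicate 2. Rnf213 (-0.810 ± 0.26, adjusted p = 0.114) and Ifi203 (-1.31 ± 0.558, adjusted p = 0.346) were not called. Mx1, Epsti1 and Usp18 overlapped between the ages, and Herc6 was at 118.5 and 113.2 CPM at 2 months and at 122.2 and 119.3 CPM at 24 months.

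Endothelial nuclei did not share the lower levels. Of 30 tested members 0 were called by edgeR and by DESeq2, which called 0.0261% and 0.977% of all genes, with 4 higher and 1 lower at an unadjusted p under 0.05 (6.88% and 5.37% of all genes), and the median was 0.0661 against 0.131 over all genes. With each library left out in turn the median was 0.0487 to 0.495. Xaf1, a pro-apoptotic interferon target, was at 10.2 and 13.4 CPM at 2 months and at 112 and 58.4 CPM at 24 months (3.03 ± 0.963, edgeR adjusted p = 0.303). Cmpk2 was at 10.2 and 0 CPM and at 65.4 and 48.1 CPM (3.47 ± 1.26, adjusted p = 0.335), and Ifit2 at 10.2 and 0 CPM and at 70.1 and 44.3 CPM (3.45 ± 1.33, adjusted p = 0.345). The young values rest on 53 and 45 nuclei, and a level of 10.2 CPM was 1 UMI. Whether the age effect differs between classes was not tested.

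Of the wider pathway, 69 genes that are not members were listed by role. In adipocytes 9 of 46 tested fell with age and 0 rose, where 7.27% of all genes were called lower and 6.56% higher. Tap1, a peptide transporter of antigen presentation, was at 153 and 203 CPM and at 39.8 and 41.8 CPM (-1.95 ± 0.266, adjusted p = 0.000737). Also called were Tap2, Psmb9, Ptpn6, Gbp8, Tgtp2, Irgm2 and Iigp1, at -0.982 to -3.21, and most of these are known as targets of interferon gamma. The immune marker lists given above fell in the same nuclei, and their part was not tested.

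In T cells 5 of 46 genes of the wider list were called higher and 3 lower, where 7.24% of all genes were called higher and 4.87% lower. The receptor subunit Ifngr1 was at 182 and 222 CPM in young and at 366 and 629 CPM in old SAT (1.30 ± 0.224, edgeR adjusted p = 0.000382). Socs1, the feedback inhibitor of the kinases, was at 51.8 and 72.2 CPM and at 155 and 156 CPM (1.37 ± 0.225, adjusted p = 0.000241). Tgtp2, Irgm2 and Iigp1, which fell in adipocytes, rose here by 1.23, 1.49 and 0.861. Socs3, Ikbke and Tlr7 fell by 1.16, 1.28 and 2.95 on the log2 scale. In B cells Ifnlr1 was called higher (2.47 ± 0.586, adjusted p = 0.0483), as 1 of 45 tested where 1.22% of all genes were called higher. In FAPs 0 of 40 tested genes of the wider list were called, in macrophages 0 of 48, in mature dendritic cells 0 of 41 and in endothelial nuclei 0 of 42, where 0%, 0.0392%, 1.43% and 0.0261% of all genes were called in either direction.

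The depots were then compared at 24 months, VAT against SAT. VAT replicate 2 carried a marker list of ovary or oviduct at 2363 CPM, against 17.2 to 33.0 CPM in the other libraries. Of its nuclei 28.1% were mesothelial, 29.9% unnamed and 3.08% adipocytes, where VAT replicate 1 held 65.6% adipocytes. The part of this tissue in the VAT values was not tested. edgeR called 0 members in adipocytes (where 0.0772% of all genes were called lower and 0.054% higher), in macrophages (0% and 0.0261%), and over all nuclei (0.0138% and 0%). It also called 0 members in FAPs, B cells, endothelial nuclei and immune nuclei, where 0% of all genes were called. T cells and mature dendritic cells were not compared, as VAT replicate 1 held 10 and 1 of these nuclei. DESeq2 called 1 member over all nuclei and 2 in immune nuclei, and 2.54% and 1.22% of the genes it adjusted. At an unadjusted p under 0.05, 10 of 37 members were higher and 2 lower in immune nuclei (4.01% and 4.45% of all genes), and 7 of 21 were higher and 0 lower in B cells (1.91% and 1.85%). In macrophages 4 of 34 were higher and 1 lower (3.02% and 2.12%), and over all nuclei 3 of 38 were higher and 2 lower (3.58% and 4.05%). In endothelial nuclei 1 of 30 was higher and 1 lower (2.97% and 1.76%), in adipocytes 0 of 29 were higher and 1 lower (3.28% and 3.41%), and in FAPs 0 of 32 in either direction (3.85% and 2.48%). These numbers moved with single libraries: in both directions together there were 3 in immune nuclei without SAT replicate 1, 4 in B cells without VAT replicate 2, and 12 over all nuclei without VAT replicate 1. The immune nuclei include 349 in an unnamed sub-cluster led by genes of other nuclei such as Acacb and Cfd, which made up 53 of the 320 in VAT replicate 1. Macrophages were 210 of 320 and 173 of 1216 immune nuclei in VAT, against 61 of 1059 and 227 of 844 in old SAT. T cells were 10 and 560 of them in VAT, against 535 and 209. The part of this mixture in the immune sums was not tested.

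In macrophages Irf7 was at 36.9 and 9.44 CPM in old SAT and at 43.6 and 126.2 CPM in VAT (2.33 ± 0.707, edgeR adjusted p = 0.911), and Oas3 at 0 and 2.36 CPM and at 26.2 and 21.6 CPM (3.49 ± 1.01, adjusted p = 0.888). These comparisons share the old SAT libraries with the age comparison, and the fitted value of Oas3 again depends on the prior count. In B cells, where VAT replicate 1 had 23 nuclei, Gbp3 was at 11.2 and 16.7 CPM in old SAT and at 87.1 and 51.8 CPM in VAT (2.05 ± 0.704, adjusted p = 0.997). Zbp1 in endothelial nuclei was at 9.35 and 4.49 CPM in old SAT and at 29.5 and 86.1 CPM in VAT (3.12 ± 0.84, adjusted p = 0.522).

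Over immune nuclei, Epsti1 had a log2 fold change of -2.42 ± 0.376 (edgeR adjusted p = 0.189) and Mx1 one of -1.67 ± 0.301 (adjusted p = 0.197). Both were highest in mature dendritic cells, of which VAT held 1 and 40 nuclei and old SAT 196 and 188. Oasl2 was at 1.79 ± 0.526 (adjusted p = 0.439). In adipocytes Epsti1 was at 17.2 and 9.61 CPM in old SAT and at 3.24 and 11.5 CPM in VAT (-1.47 ± 0.651, adjusted p = 0.731), and the groups overlapped. The log2 fold change of Oas2 in adipocytes, 0.979, was -0.0661 without VAT replicate 1. In FAPs Oasl2 (1.08 ± 0.604, adjusted p = 0.841) and Ifi204 (-0.905 ± 0.488, adjusted p = 0.837) were not called, and the value of Oasl2 was -0.02 without batch correction.

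Of the 23 members that edgeR called in no class and no comparison, several had few counts, such as Oas1a with 172 UMIs and Ifit3b with 221 in all nuclei, and were tested in few classes. Others were well counted, among them Bst2 (6303 UMIs), Samd9l (6777), Stat2 (4866) and Parp14 (4429). Of the 15 called members 7 held the ISRE repeat in the window searched, and of the other 23 members 8 did.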

How the data were processed

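Nuclei of 6 libraries were prepared with a Singleron kit, and the authors aligned the reads to GRCm39 with Celescope and deposited raw UMI counts per gene and barcode. The version, the annotation release and the strand setting are not given in the sources used here. A barcode was kept as a nucleus if it held more than 500 genes and 1000 UMIs, with less than 15% of them mitochondrial. With the members and the wider pathway genes left out, 1000 variable genes and 30 principal components were corrected for library and clustered (Leiden resolution 2.0, 20 neighbours, then 1.0 for immune nuclei; scanpy 1.11.5, leidenalg 0.10.2, Python 3.11.15). Clusters were named from RNA marker lists, by a scoring rule settled after the clusters were seen, so class names are rebuilt and not the study's. Scrublet's own threshold marked almost no nuclei, so doublets were kept, and an alternative, chosen after seeing the data, removed the 6% with the highest scores.

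UMIs were summed per library and class with at least 20 nuclei. edgeR 4.0.16 (R 4.3.3) was fitted to all libraries with TMM factors, a low-count filter and Benjamini-Hochberg adjustment over all genes tested. The scripts were tested on simulated data. Alternatives were DESeq2 1.42.0, library-size scaling, no low-count filter, a replicate block, only the 4 libraries compared where 3 groups were fitted, looser filters on nuclei (over 300 genes and 500 UMIs), other clustering settings and each library left out. Exact binomial intervals (95%) cover counting error only. Any pair of libraries shared up to 0.769% of the barcodes of the smaller one, or 0.482% among nuclei kept.

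The members and gene lists were chosen with earlier results of these data known. Members named per class were those called, up to 6 per direction, or those with the smallest p until 3 were named, and across classes the 2 with the most UMIs in each of 8 role groups and any member at least 4 times higher than in the next class. The other called members, and members given as exceptions, were named after their values were seen. Upstream stretches were read from the reference genome at GENCODE gene starts. No column of the authors' own comparisons was used. A gene of the wider pathway list is not reported here by name, though the list's counts include it.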

Additional observations from a re-analysis of the deposited data

How the results depend on the processing

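Of 232 counts of called members under an alternative, 191 were within 1.5 times the reported count, and of 806 fold changes of named genes 804 kept their direction, while 51 of 239 called ones lost the call. The exceptions were Oas2 between depots in adipocytes (0.979, and -0.0661 to 1.25 with a library left out) and Oasl2 between depots in FAPs (1.08, and -0.02 without batch correction). With age, adipocytes had 10 called members, 5 with looser filters on nuclei and 1 to 8 with a library left out. T cells had 9, 4 by DESeq2 and 3 to 10 with a library left out. B cells had 1, with 2 by library-size scaling, 4 without the low-count filter, 0 with looser filters, 2 without batch correction, 2 with members among the variable genes, 3 at resolution 1.0 and 0 to 6 with a library left out. Mature dendritic cells had 1, with 0 by DESeq2, with only the 4 SAT libraries, with looser filters and with the highest doublet scores removed, and 0 to 1 with a library left out. Macrophages had 0, with 3 by DESeq2, 1 by library-size scaling, 11 without the low-count filter, 7 with only the 4 SAT libraries, 2 with the highest doublet scores removed, 5 without batch correction and 1 with members among the variable genes. FAPs had 0, with 3 by DESeq2, 13 without the low-count filter and 6 without batch correction. Without that filter, 1 was called over all nuclei, 3 in immune nuclei and 1 in endothelial nuclei. Between depots the reported counts were 0, with 1 by DESeq2, 4 without the filter and 0 to 2 with a library left out over all nuclei, 2 by DESeq2 and 5 without the filter in immune nuclei, and 0 to 1 with a library left out in macrophages. The causes were not tested. Apart from DESeq2, the shares of all genes called under these alternatives were not counted, so the counts of members cannot be set against them.

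The median summed level was 4190 CPM in immune nuclei and 3730 with looser filters, 3400 in T cells, 2820 with looser filters and 2980 to 3500 with a library left out, and 2420 in B cells and 3020 at resolution 1.0. The share of nuclei with 5 or more members, pooled over libraries, moved with the number asked for and with thinning. With 3 or more, with 8 or more and without thinning it was 54.1%, 9.59% and 42.7% in macrophages (reported 23.9%), 36.9%, 6.63% and 24.9% in FAPs (15.1%), 9.88%, 0.177% and 8.36% in adipocytes (0.993%), and 45.6%, 1.29% and 23.8% in T cells (11.4%).

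The labels do not say that a replicate number marks a mouse, and deviations of same-numbered libraries correlated at -0.476 to 0.108, so the libraries were not treated as paired. With the replicate block the age counts were 10 in adipocytes, 10 in T cells and 0 in B cells. The size of difference that could be called at this depth varied between classes, and none of the changes simulated in FAPs was recovered, so that 0 calls there do not show that levels were alike.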
